A study of Mus musculus with 8 samples.

Results

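The fibrillar collagen chains were followed in cultured mouse cardiac fibroblasts that had received an adenovirus carrying Has2 or a control adenovirus carrying green fluorescent protein (GFP). The members were 9 genes, fixed by name as rows of the count table: Col1a1, Col1a2, Col2a1, Col3a1, Col5a1, Col5a2, Col5a3, Col11a1 and Col27a1. They are 9 of the 55414 genes listed, and all 9 were among the 15150 genes abundant enough to be tested. Has2 encodes hyaluronan synthase 2, the plasma membrane enzyme that spins out the matrix polysaccharide hyaluronan. Each virus had 4 libraries, replicates 1 and 2 from females and 3 and 4 from males, all labelled heart fibroblasts of wild-type C57BL/6J mice. The protocol text speaks of mice with floxed Has2 alleles instead, an allele both groups would then share. Cells at passage 2 were kept without serum for 24 h and exposed to virus for 5 h. They then stayed for 48 h in fresh medium with bFGF and TGFb, each given as 20 ng/mL, so the control cultures carry the same stimulation as the Has2 cultures. Libraries sharing a replicate number also share a preparation identifier, and whether a preparation was 1 animal is not stated. The p-values below therefore reflect the spread among these samples alone.

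Fibrillar collagens are the rods that give tissue its tensile strength. In each chain glycine recurs at every turn of a short repeat, and chains wind around each other into a triple helix. The propeptides are then cut off and the rods pack side by side into fibrils. Type I collagen combines a pair of Col1a1 chains with a single Col1a2 chain, type III is made of Col3a1 alone, and type V chains start and limit the width of fibrils made mainly of types I and III. Types II and XI are the cartilage counterparts. In the heart, fibroblasts are the main source of types I and III, and TGF-beta is their best known inducer.

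The glycine repeat, which all collagens have and which runs unbroken for long stretches in fibrillar chains, can be read in the transcripts, and its start is shown to set the coding sequences of the 9 genes side by side. Each line gives the first 54 bases of the longest unbroken run of glycine triplets, 5′ to 3′, in the coding sequence of the longest coding transcript of GENCODE M21, with capitals for the GGN glycine codon that opens each triplet; a glycine codon at another place in a triplet is in lower case.
Col1a1: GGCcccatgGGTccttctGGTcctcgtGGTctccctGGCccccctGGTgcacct
Col1a2: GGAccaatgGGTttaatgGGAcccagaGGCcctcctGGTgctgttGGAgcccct
Col3a1: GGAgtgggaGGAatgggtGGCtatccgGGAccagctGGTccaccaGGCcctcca
Col5a1: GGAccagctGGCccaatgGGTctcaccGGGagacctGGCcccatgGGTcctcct
Col5a2: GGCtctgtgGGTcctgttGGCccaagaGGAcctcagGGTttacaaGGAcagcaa
Col5a3: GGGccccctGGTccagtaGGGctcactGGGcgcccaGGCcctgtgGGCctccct
Col2a1: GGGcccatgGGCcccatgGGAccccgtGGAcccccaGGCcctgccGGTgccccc
Col11a1: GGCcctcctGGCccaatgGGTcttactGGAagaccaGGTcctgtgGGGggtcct
Col27a1: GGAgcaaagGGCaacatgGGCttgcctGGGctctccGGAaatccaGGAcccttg

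A run of this kind held 337 to 344 glycine triplets in 8 of the chains and 217 in Col27a1, whose helix is known to be shorter and interrupted. It filled 74.1% of the coding sequence of Col1a2 and 35.3% of that of Col27a1. The chains spelled glycine differently. In Col1a1 55.9% of these codons were GGT and 1.18% GGG, whereas in Col27a1 15.7% were GGT and 23.0% GGG. The GC content of the whole transcript ran from 48.0% in Col11a1 and 49.6% in Col5a2 to 62.2% in Col2a1.

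Libraries held 46981231 to 55795187 counts. Has2 stood at 7.36 to 25.2 CPM (counts scaled to the effective library size) in the GFP libraries and at 3207 to 9527 CPM in the Has2 libraries (log2 fold change 8.49, SE 0.57; edgeR adjusted p = 0.0011), in the direction of the labels. All 10 fibroblast markers were detected, among them Pdgfra at 705 ± 48.2 CPM and 715 ± 117 CPM (SD, n = 4) with the GFP and Has2 viruses. The 10 macrophage markers were also all present and summed to 893 to 2199 CPM with the GFP virus and 851 to 2303 CPM with the Has2 virus. Cardiomyocyte markers summed to at most 9.08 CPM, and Myh6, the cardiac myosin, was at 0 in some libraries of both groups. GFP replicate 1 stood apart in hepatocyte markers: Alb, a liver product, was found there at 450 CPM and at no more than 0.647 CPM in any other library. Without that library the virus log2 fold changes of the 9 chains ran from -0.11 to 0.29, the upper end being Col5a3, and its part in the collagen levels was not tested. In bulk RNA, fewer cells of a type and less RNA per cell cannot be told apart.

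Fibrillar collagen transcripts took up a large and similar share of the counts under both viruses. The 9 genes together held 2.60% ± 0.51 of all counts in GFP cultures and 2.64% ± 0.54 in Has2 cultures (SD, n = 4). Library by library, the share in replicates 1, 2, 3 and 4 was 2.90%, 3.15%, 2.13% and 2.20% with GFP and 2.55%, 3.41%, 2.50% and 2.12% with Has2. The groups overlapped, and the female libraries lay above the male ones of either virus: the lowest female share was 2.55% and the highest male share 2.50%. The exact binomial 95% interval of the share in GFP replicate 1 was 2.89% to 2.90%, a width set by counting error only, as copies made by PCR were not marked. Col1a1, Col1a2 and Col3a1 made up 82.8% to 84.4% of the fibrillar counts of every library.

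**Figure D1:**
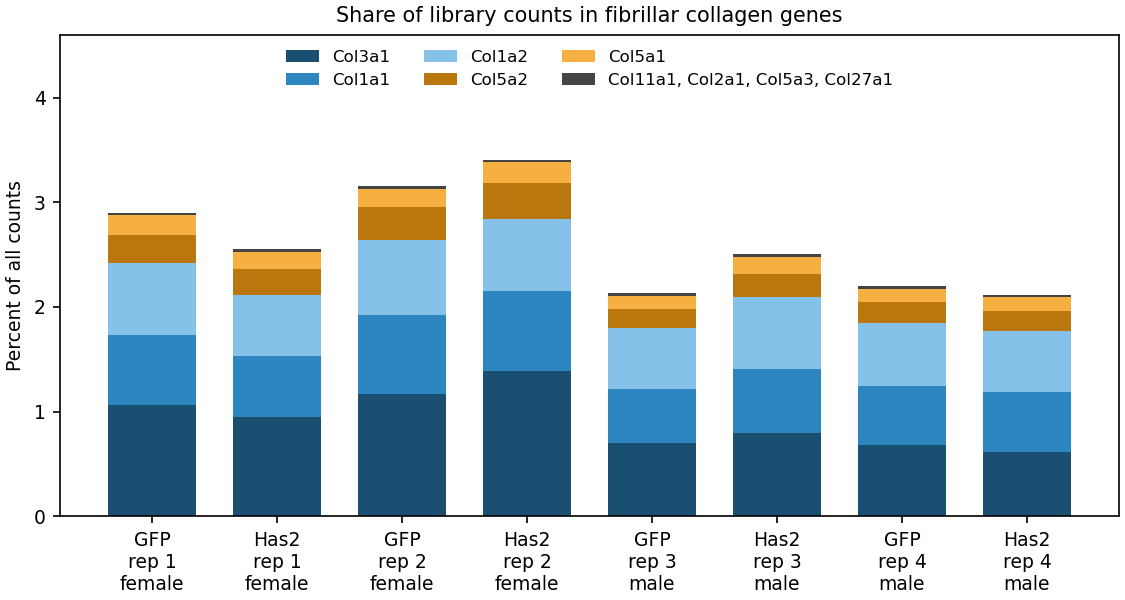
Percent of all counts of each library (vertical axis) in the fibrillar collagen genes, stacked by gene, with replicate pairs side by side and the sex of the culture under each bar. Bars reach 2.12% to 3.41%, and Has2 bars are neither uniformly taller nor shorter than their GFP partners.

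The chains were ordered on a per-length scale, RPKM (CPM per kilobase of the longest transcript). Col3a1, the sole chain of type III, was highest at 1666 ± 549 RPKM, followed by Col1a2 at 1204 ± 152 and Col1a1 at 1065 ± 194 RPKM (SD over the 8 libraries). By this measure they ranked 20, 33 and 36 among the 15123 tested genes with a matched transcript length. Col3a1 was above Col1a2 in 8 of 8 libraries, but by factors of only 1.00 to 1.91, and the ranges of Col3a1, Col1a2 and Col1a1 overlapped from neighbour to neighbour. Their order turned with the length used: by joined exons Col1a1 was at 962, Col3a1 at 945 and Col1a2 at 518. Col5a2 at 378 ± 103 and Col5a1 at 188 ± 38.7 RPKM followed, with ranges that overlapped neither each other nor those of their neighbours. Below them came Col2a1 (15.5 ± 5.50 RPKM), Col11a1 (14.5 ± 4.95), Col5a3 (6.95 ± 1.89) and Col27a1 (1.74 ± 0.26), of which Col27a1 lay apart from the rest. Col2a1 was above Col11a1 in 4 of 8 libraries, and their ranges overlapped, as did those of Col11a1 and Col5a3.

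**Figure D2:**
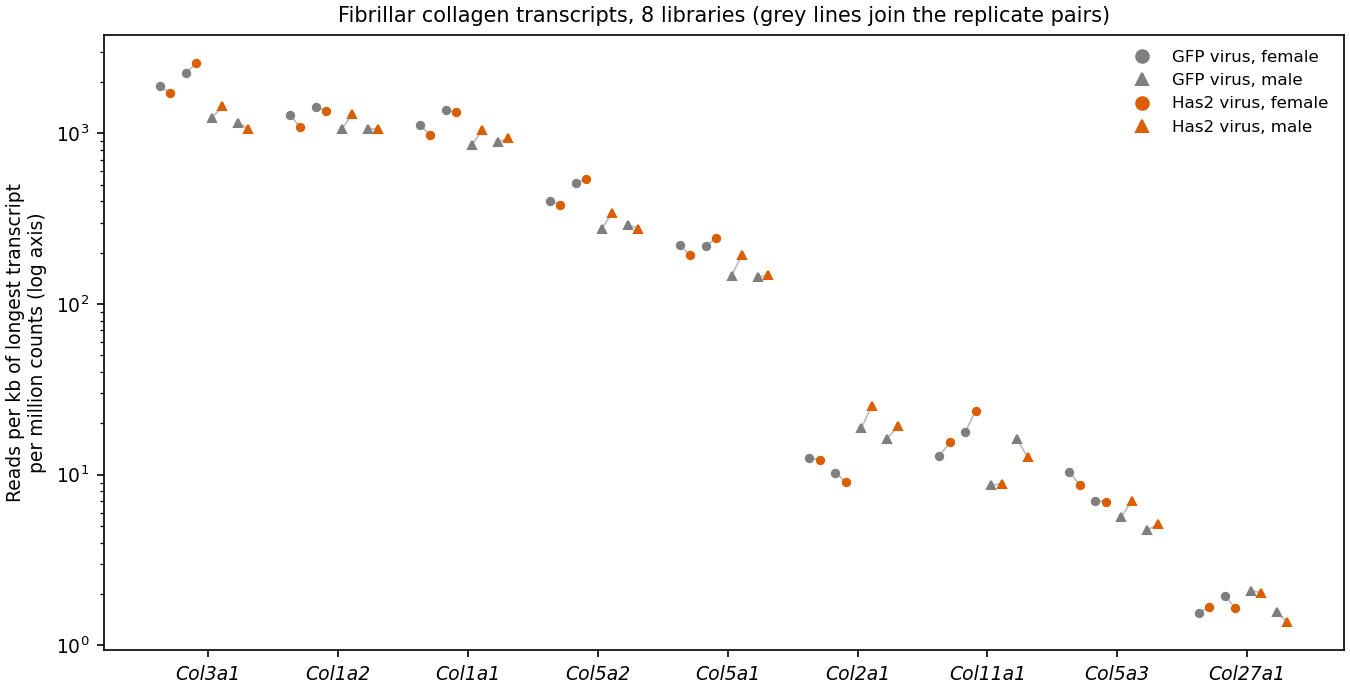
Level per length (vertical axis, log scale, RPKM by the longest transcript) of the 9 chains in each of the 8 libraries, with grey lines joining GFP and Has2 libraries of the same replicate. Col3a1, Col1a2 and Col1a1 lie between 855 and 2592 RPKM, Col5a2 and Col5a1 between 144 and 538, and the other chains at 25.3 or less, whichever virus was given.

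Of the 9 chains 0 passed edgeR's quasi-likelihood test for the virus at an adjusted p under 0.05, over all genes tested. The percentage of all 15150 tested genes called was 0.0066%, which is Has2 alone. Unadjusted, 388 genes had a p under 0.05, none of them a chain, while DESeq2 called 7 genes, again no chain, and the smallest unadjusted edgeR p of a chain was 0.563, that of Col2a1. The median log2 fold change of the 9 chains was 0.05 and 6 were above 0. Over all genes tested the median was -0.01, and 48.6% were above 0. With a trend of GC content and transcript length removed, the median of the chains turned to -0.10, with 1 of 9 above 0. That of all genes turned to -0.05, and only 36.8% of them were above 0. In that corrected fit with the replicate block, Col1a2 had a log2 fold change of -0.17 and Col27a1 one of -0.27, with unadjusted edgeR p of 0.0402 and 0.0355 and adjusted p of 0.403 and 0.393. The same fit gave 1816 of the 15150 genes an unadjusted p under 0.05. With the replicate number as a block, which narrowed the standard errors, again 0 of the 9 chains were called, with 0.0066% of all genes. The 95% intervals below are those of the fit without a block unless said otherwise, and they move with the fit. With the block they were 0.876-fold to 1.30-fold for Col5a1 and 0.884-fold to 1.33-fold for Col2a1. Those of Col11a1 and Col27a1 were 0.851-fold to 1.34-fold and 0.788-fold to 1.13-fold. Those of Col1a2, Col5a2 and Col5a3 were 0.814-fold to 1.21-fold, 0.868-fold to 1.24-fold and 0.844-fold to 1.25-fold. With the trend removed as well, those of Col1a2 (0.800-fold to 0.993-fold) and Col27a1 (0.702-fold to 0.984-fold) did not span 1.

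Type I collagen is the main load-bearing collagen. Col1a1, which encodes its alpha 1 chain, was at 6628, 8076, 5070 and 5282 CPM in GFP replicates 1 to 4 and at 5828, 7934, 6179 and 5536 CPM in the Has2 replicates of the same numbers. Replicate 2 was the highest library under either virus, and the groups overlapped. The log2 fold change was 0.02 (SE 0.19; edgeR adjusted p = 1.0), with a 95% interval of 0.756-fold to 1.37-fold, and of 0.846-fold to 1.24-fold with the replicate block. Col1a2, its alpha 2 chain, was at 6869, 7619, 5696 and 5660 CPM with GFP and at 5793, 7241, 6936 and 5678 CPM with Has2. Its log2 fold change was -0.01 (SE 0.16; 0.01 with RLE scaling), with an interval of 0.780-fold to 1.26-fold. In both type I genes the female pairs were lower and the male pairs higher with the Has2 virus: within pairs 1, 2, 3 and 4, Col1a1 was at 0.879, 0.982, 1.22 and 1.05 times its GFP level. Plain percents of counts, without scaling, broke this in Col1a1 pair 2 (0.756% to 0.762%) and in Col1a2 pair 4 (0.600% to 0.588%).

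Col3a1, the type III chain that is prominent in distensible tissue and early scars, varied more between preparations than any other abundant chain. Its level was 10497, 12504, 6866 and 6434 CPM in GFP replicates 1 to 4 and 9523, 14422, 8006 and 5921 CPM in the Has2 replicates. Replicate 2 stood at the top and replicate 4 at the bottom of both groups. The log2 fold change for the virus was 0.06 (SE 0.31; interval 0.648-fold to 1.68-fold), and the blocked interval, from which the differences between preparations are taken out, was 0.846-fold to 1.25-fold.

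Among the type V chains, Col5a1 was at 1866, 1841, 1231 and 1208 CPM with GFP and at 1626, 2035, 1626 and 1236 CPM with Has2. It was higher with the Has2 virus in 3 of 4 pairs, the largest step being 1.32 times in pair 3, and its log2 fold change was 0.09 (SE 0.21; interval 0.771-fold to 1.46-fold). In pair 4 the step was only 1.02 times, and the plain percent of counts fell there, from 0.12803% to 0.12793%. Col5a2, the partner chain, was at 2666, 3408, 1821 and 1935 CPM with GFP and at 2525, 3565, 2264 and 1834 CPM with Has2, or 0.05 as log2 fold change (SE 0.25). Col5a3, another type V chain of restricted tissue distribution, was at 63.5, 43.2, 34.6 and 28.9 CPM with GFP and at 53.5, 42.4, 42.8 and 31.3 CPM with Has2, or -0.00 as log2 fold change (SE 0.25; 0.29 without GFP replicate 1). The groups overlapped for each of these chains.

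Col2a1, the chain of cartilage type II collagen that also serves as the third chain of type XI, was at 63.6, 52.5, 95.9 and 83.0 CPM in GFP replicates 1 to 4. In the Has2 replicates it was at 62.7, 46.1, 129 and 98.4 CPM. All male libraries lay above all female ones, and the log2 fold change for the virus was 0.19 (SE 0.32; interval 0.697-fold to 1.87-fold). Without Has2 replicate 3 it was -0.09. Of the 8 chondrocyte markers only Sox9, a transcription factor that activates Col2a1 in cartilage, and Matn3 passed the expression filter. Sox9 was at 127, 35.3, 103 and 105 CPM in GFP replicates 1 to 4 and at 163, 47.8, 118 and 117 CPM with Has2, so it did not separate the sexes as Col2a1 did. Acan, the cartilage proteoglycan, was at 0.103 CPM or less in every library, and Col9a1, a chain of the type IX collagen that decorates type II fibrils, at 0.127 CPM or less.

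Col11a1, the type XI chain that nucleates thin fibrils, was at 98.1, 137, 66.4 and 123 CPM with GFP and at 119, 182, 68.0 and 97.0 CPM with Has2. It was higher in the Has2 library of 3 pairs and at 0.786 times its GFP level in pair 4, and the log2 fold change was 0.13 (SE 0.31; interval 0.678-fold to 1.77-fold). Without Has2 replicate 2 it was -0.16. In pair 3 the step was only 1.02 times, and the plain percent of counts fell there, from 0.00676% to 0.00673%. Col27a1, known from cartilage growth plates, was the least abundant chain and one of the steadiest: 11.8, 14.7, 15.9 and 11.9 CPM with GFP and 12.8, 12.7, 15.5 and 10.4 CPM with Has2, a log2 fold change of -0.08 (SE 0.17; interval 0.721-fold to 1.24-fold). Of the 9 chains 0 had Has2 and GFP libraries that did not overlap, and 0 moved the same way in all 4 pairs. Over all genes tested 2.38% did not overlap, 9.16% were higher and 7.96% lower in all 4 pairs, 17.1% together.

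**Figure D3:**
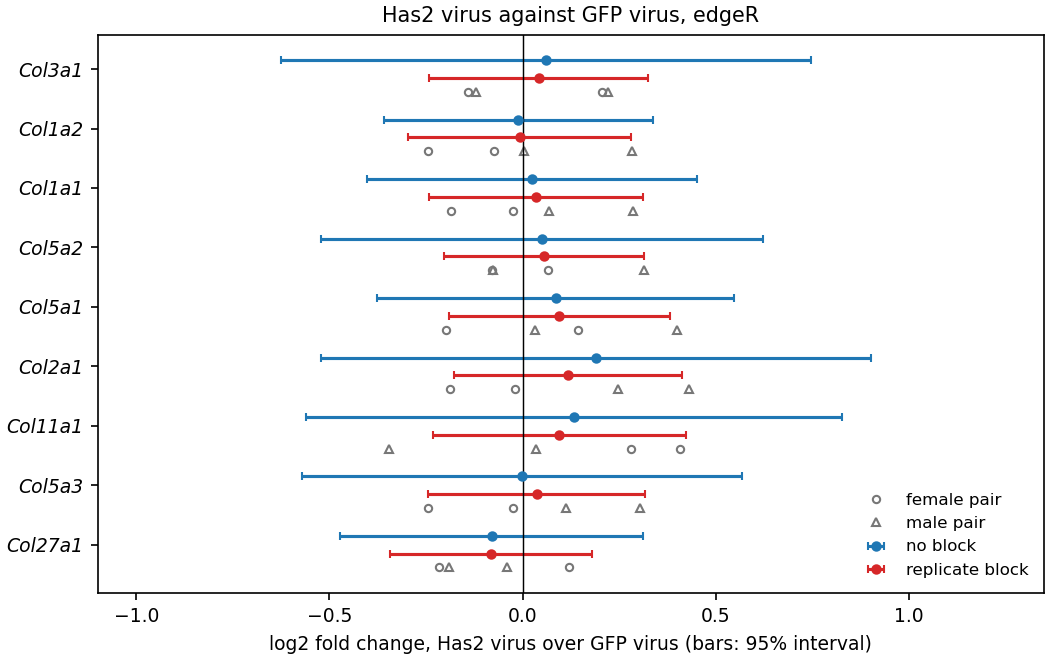
Log2 fold change (horizontal axis, Has2 virus over GFP virus) of each chain with its 95% interval, without a block and with the replicate number as a block; open symbols are the single pairs, circles female and triangles male. Every interval spans 0, and the blocked intervals are narrower than the unblocked ones for all 9 chains.

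The proportions between the chains were compared as ratios of reads per kilobase, which need no scaling between libraries. A total of 6 ratios was tested with two-sided exact permutation tests, in which 4 libraries against 4 cannot give a p below 0.0286. Col1a1 to Col1a2, the pair that assembles as 2 to 1 in the protein, was the tightest: 0.870, 0.956, 0.803 and 0.842 in GFP replicates 1 to 4 and 0.907, 0.988, 0.803 and 0.879 in the Has2 replicates. By this length the alpha 1 transcript was below that of alpha 2 in every library. The ratio was higher with the Has2 virus in 4 of 4 pairs, by 0.00 to 0.06 on the log2 scale, but the group means of 0.868 ± 0.065 and 0.895 ± 0.076 (SD, n = 4) differed by less than their spread (log2 difference 0.04, exact permutation p = 0.629, 1.0 adjusted over the 6 ratios). A paired exact test gave p = 0.125, which is as low as 4 pairs allow, and 0.75 after adjustment. The absolute value rests on the length used. Averaged over the libraries as a geometric mean it was 0.879 by longest transcript, 0.920 by coding length, and 1.85 when all annotated exons of a gene were joined, since Col1a2 then counts 12426 bases in place of 5348.

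Col5a1 to Col5a2, which share the common type V trimer, was 0.552, 0.426, 0.533 and 0.492 with GFP and 0.508, 0.450, 0.566 and 0.531 with Has2 (exact permutation p = 0.714). By longest transcript they stood near 1 to 2, although the alpha 1 chain is the more numerous in that trimer. The value rests on the length used: the geometric mean was 0.505 by longest transcript, 0.522 by coding length and 0.724 by joined exons. Col5a3 to Col5a1 lay between 0.029 and 0.047 in all libraries by longest transcript (exact permutation p = 0.771). Col5a1 to Col1a1, a measure of how much of the fibril initiating chain there is for the bulk chain, was 0.173 ± 0.018 with GFP and 0.180 ± 0.017 with Has2 (SD, n = 4; exact permutation p = 0.571). Paired exact tests gave p = 0.625 for Col5a1 to Col5a2, 0.375 for Col5a3 to Col5a1 and 0.5 for Col5a1 to Col1a1.

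Col3a1 to Col1a1 was 1.69, 1.65, 1.44 and 1.30 in GFP replicates 1 to 4 and 1.74, 1.94, 1.38 and 1.14 in the Has2 replicates (exact permutation p = 0.971). The female libraries ranged from 1.65 to 1.94 and the male ones from 1.14 to 1.44, without overlap, and each female pair had the higher ratio in its Has2 library, each male pair in its GFP library. Which of these chains was higher depended on the length: the geometric mean of the ratio was 1.51 by longest transcript and 0.95 by joined exons. Col11a1 to Col5a1 was the loosest ratio, 0.046 to 0.112 (exact permutation p = 1.0). It moved in the same crosswise manner, by 0.48 and 0.26 on the log2 scale for females and by -0.37 and -0.38 for males. In both ratios the first transcript is poorer in GC: 52.5% in Col3a1 and 58.9% in Col1a1, 48.0% in Col11a1 and 58.0% in Col5a1. A ratio does not take out a GC trend between libraries, and whether GC content had a part was not tested. The geometric mean of Col11a1 to Col5a1 was 0.0747 by longest transcript and 0.0454 by joined exons. All 6 ratios had an adjusted p of 1.0 in the unpaired exact permutation test. In the paired exact test the smallest adjusted p was 0.75, that of Col1a1 to Col1a2.

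**Figure D4:**
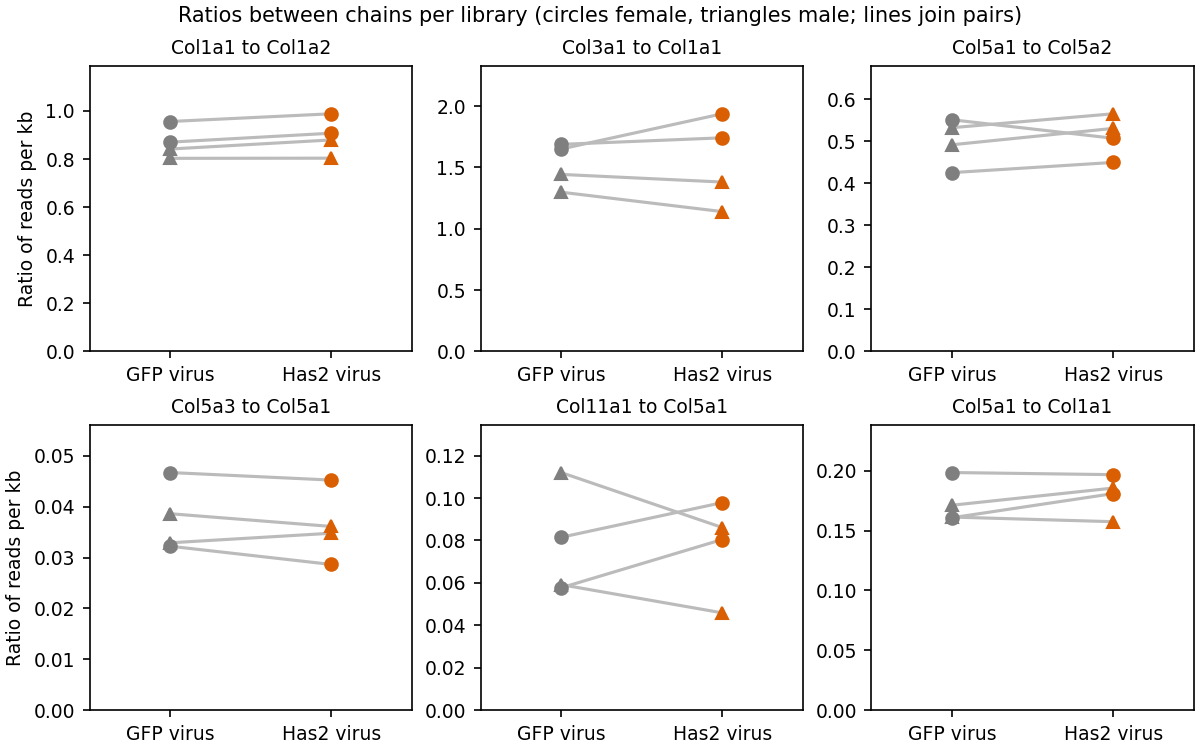
Ratio of reads per kilobase between 2 chains (vertical axes, each starting at 0) in the GFP and Has2 libraries, circles female and triangles male, with lines joining replicate pairs. The Col1a1 to Col1a2 ratio stays between 0.803 and 0.988 in the 8 libraries, and the lines of Col11a1 to Col5a1 slope up in the female and down in the male pairs.

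Male and female pairs were then set against each other to see whether a chain responded differently with sex. Sex cannot be told apart from the preparation series, since the identifiers of female and male preparations start with different letters. Without a block 0 of the 9 chains differed at an edgeR adjusted p under 0.05, as did 0% of all genes (2014 genes had an unadjusted p below that value, and DESeq2 called 675 genes, no chain among them). With the replicate block 2 of 9 chains were called, beside 29.5% of all genes, a share of the same order. Col2a1 stood at -0.10 in females and 0.34 in males on the log2 scale (difference 0.44, SE 0.13; edgeR adjusted p = 0.0238). Col11a1 went the other way, with 0.35 in female and -0.16 in male pairs (difference -0.50, SE 0.14; edgeR adjusted p = 0.0238). Both calls ended when a trend of GC content and transcript length was removed from every library (differences 0.21 and -0.22; edgeR adjusted p = 0.303 and 0.219), in a fit that called 11.2% of all genes. Taken across genes, and so with no independent replicates behind it, Spearman's rho of a pair's change with GC content was 0.68 and 0.66 for males but -0.23 and -0.18 for females. The transcripts of Col2a1 and Col11a1 are the most GC-rich and the most GC-poor of the 9. Whether GC content had a part in their differences was not tested. Without GFP replicate 4 the unblocked difference of Col11a1 was -0.05, against -0.56 with all libraries.

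Of the other chains, Col1a1, Col1a2 and Col5a3 were lower in both female pairs and higher in both male pairs, with differences of 0.28, 0.30 and 0.35 (edgeR adjusted p = 0.189, 0.173 and 0.0761 with the block). Col2a1 also had both female pairs lower and both male pairs higher. Over all genes 34.5% had both female pairs one way and both male pairs the other, counting either direction. The directions rest on the scaling between libraries. As a plain percent of counts, Col1a1 rose in pair 2 (0.756% to 0.762%), as did Col5a3 (0.00404% to 0.00408%). Col1a2 fell in pair 4 (0.600% to 0.588%). Col3a1 had nearly the same value in both sexes, 0.03 in female and 0.05 in male pairs. Within each sex its pairs opposed each other, at -0.14 and 0.21 in females and 0.22 and -0.12 in males on the log2 scale.

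Some chains differed more between preparations than between viruses. Col3a1 averaged 11736 CPM in the 4 female and 6807 CPM in the 4 male libraries, 1.72 times as much, and Col5a2 3041 and 1964 CPM. Col5a1 was also higher in every female library, though only just (lowest female 1625.7 CPM, highest male 1625.5 CPM). Col2a1 was 1.81 times as high in the male libraries. Thus 4 of the 9 chains separated the sexes, 3 with females higher and 1 with males higher; over all genes tested 12.9% did so, 6.61% and 6.28% in these directions. With 2 preparations per sex, and 2 libraries from each, no test of sex is given.

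The profiles of the chains over the 8 libraries were compared with each other and with other genes. As a measure served the root mean square difference of log2 CPM, each gene centred on its own mean. Of the 36 pairs of chains, Col1a1 and Col1a2 were the most alike (0.10), followed by Col3a1 and Col5a2 (0.11). The members of the latter pair encode chains of different collagen types, and they are direct neighbours among the protein-coding genes of chromosome 1 in the RefSeq annotation of GRCm38.p6. Col2a1 was the least like the others, at 0.90 from Col11a1 and 0.87 from Col3a1. Among 10303 tested genes with a mean of at least 5 CPM, Col5a2 ranked 2 in likeness to Col3a1. Rank 1 was Adamts2 (0.06), the protease that trims the amino-terminal propeptide of fibrillar procollagens, and ranks 3 to 5 were Fzd8, Tln2 and Nrbp2 (0.11 to 0.12). The genes nearest to Col1a1 were Kansl3 (0.07), Fbln5 (0.07), a fibulin of elastic fibres, Prnp, Hdac4 and Wnt9a (0.08 each), and Col1a2 ranked 20. These are descriptions over 8 libraries that share preparations in pairs.

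**Figure D5:**
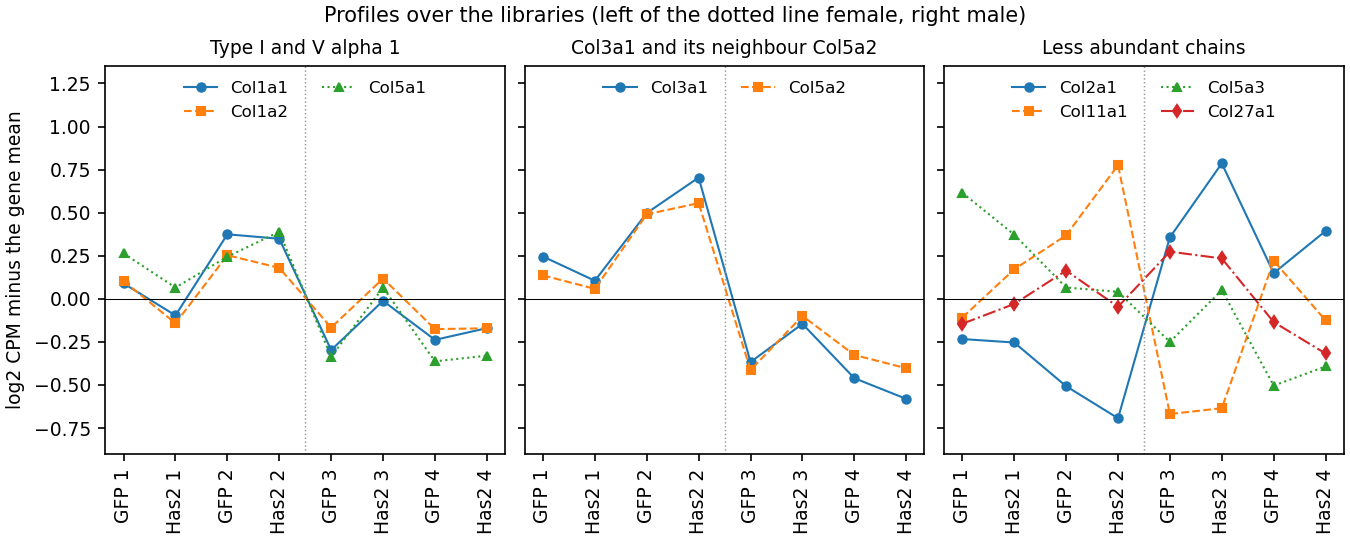
Log2 CPM of each chain minus its own mean over the 8 libraries (vertical axis), with female libraries left and male libraries right of the dotted line. Col3a1 and Col5a2 trace nearly the same course, high in female and low in male libraries, while Col2a1 runs the opposite way.

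The genes that fold, trim, cross-link and bind these chains were read from lists drawn up by function. None of the 77 tested members of these 5 lists was called for the virus, without or with the replicate block, where 0.0066% of all genes were; 2 of them, Mmp13 and Nfic, had an unadjusted edgeR p under 0.05 without the block. Over all 15150 genes tested 388 had such a p, and 48.6% had positive fold changes. In all 4 pairs 9.16% of them were higher and 7.96% lower. Of the 26 tested genes of procollagen folding and trimming 16 had positive fold changes (median 0.05). The members of smallest p were Tll2 (log2 fold change 1.03, SE 0.54), a tolloid-like protease at only 0.125 and 0.256 CPM, the prolyl isomerase Fkbp14 (-0.13, SE 0.10), Tll1 (-0.45, SE 0.36) and the prolyl 3-hydroxylase P3h2 (0.49, SE 0.40). Fkbp14 turned to 0.04 with the GC and length trend taken out. Leaving out libraries moved Tll2 between 0.49 and 1.53, Tll1 between -0.66 and -0.14, and P3h2 between 0.22 and 0.77. Of the 17 genes of fibril cross-linking and assembly 13 were above 0 (median 0.13). Fibronectin (Fn1), on which collagen fibrils are laid down, reached 0.46 on the log2 scale (SE 0.23) and the small proteoglycan Bgn 0.32 (SE 0.21); both were higher in 4 of 4 pairs. Col12a1, a collagen on the fibril surface, had 0.57 (SE 0.45; 0.13 without Has2 replicate 2), and dermatopontin (Dpt) -0.15 (SE 0.14), lower in 4 of 4 pairs. Leaving out libraries moved Fn1 between 0.31 and 0.62 and Dpt between -0.22 and -0.07.

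Among 15 receptors and turnover genes 10 were above 0 (median 0.06). Over all genes tested 48.6% were above 0 and 9.16% were higher in all 4 pairs. Mmp13, a collagenase that cleaves the intact triple helix, was at 1.16, 1.29, 1.86 and 2.47 CPM in GFP replicates 1 to 4 and at 4.78, 4.10, 2.12 and 3.99 CPM with Has2. It was higher in 4 of 4 pairs (log2 fold change 1.14, SE 0.33), but the groups overlapped and the test over all genes did not call it (edgeR adjusted p = 1.0; unadjusted p = 0.0068). Itga11, a subunit of a fibrillar collagen receptor, was at 0.38 on the log2 scale (SE 0.28), the receptor kinase Ddr1 at 0.15 (SE 0.19) and Itgb1 at -0.16 (SE 0.22). Without Has2 replicate 2 Itga11 was at 0.11 and Ddr1 at -0.01, and without Has2 replicate 1 Itgb1 was at -0.03. Ddr1 was also at -0.00 with the GC and length trend taken out. Of 18 genes of collagen transcription and the TGF-beta response 15 were above 0 (median 0.09); Nfic, a nuclear factor I protein, had 0.40 (SE 0.18), Ybx1 0.22 (SE 0.11), the receptor Tgfbr1 -0.47 (SE 0.36) and Tgfb1 0.21 (SE 0.18). Leaving out libraries moved Tgfbr1 between -0.89 and -0.24 and Tgfb1 between 0.11 and 0.32. The fifth list held the fibrillar chains not among the 9, of which only Col11a2 was abundant enough to test (log2 fold change -0.34, SE 0.30, and -0.48 to -0.12 when libraries were left out; 2.01 ± 0.59 and 1.59 ± 0.47 CPM, SD, n = 4).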

How the data were processed

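The libraries came from 8 cultures and were made with a stranded mRNA kit, per the labels' protocols. The deposited table holds raw counts for each Ensembl gene. FastQC 0.10.1, HTSeq 0.10.0 and the build mm39 (GRCm39) are named in the submitters' processing notes. Which aligner, annotation and strand setting the authors used is not stated, so how reads of overlapping or antisense genes were counted is not known here.

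Symbols, transcript lengths and GC content were matched by identifier to GENCODE M21, of an older build. Of 55414 identifiers 52081 matched, and no coordinates are given. Levels per length use the longest transcript.

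Tests across genes used edgeR 4.0.16 under R 4.3.3: a quasi-likelihood F-test on TMM-scaled counts, with the default filter on low counts, group alone in the model, and Benjamini-Hochberg adjustment over all genes tested, called under 0.05. An SE is the absolute log2 fold change over the root of F. Sex by virus was fitted likewise, with and without the block. Exact permutation tests used scipy 1.17.1. The fits were tested on simulated data that held no trend of GC content or transcript length. Those data cannot show how the fits behave where such a trend is present.

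Replicate numbers pair the libraries, since equal numbers share a preparation identifier. Correlations of their deviations from group means were 0.58, 0.62, 0.53 and 0.44 for replicates 1 to 4. Chi-square over its degrees of freedom was 45.4 or more for any 2 libraries of a group, so none agreed within sampling noise.

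Other settings were a replicate block, a sex covariate, other scalings and low-count filters, DESeq2 1.42.0, limma-voom (limma 3.58.1), a correction that takes out spline trends of GC and of log2 length (5 degrees of freedom for each), and leaving out libraries. The joined-exon length was added after seeing the data. Members and lists were chosen with earlier results of these data known. Named genes are the 9 members, Has2, up to 4 genes of smallest p per list, and the 5 genes most like Col1a1 and Col3a1 each. Marker genes are named from their lists; which of them to name was chosen after their values were seen.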

Additional observations from a re-analysis of the deposited data

Results flagged for a closer look

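Of the 9 chains, 5 are listed for the comparison of male and female pairs, 2 by the test and 3 by opposite pairs alone. Col2a1 and Col11a1 were called by edgeR with the replicate block, with male minus female log2 differences of 0.44 and -0.50 (SE 0.13 and 0.14), in a fit that called 29.5% of all genes; with the GC and length trend removed both missed the threshold (edgeR adjusted p = 0.303 and 0.219). In Col1a1, Col1a2 and Col5a3 both female pairs were lower and both male pairs higher with the Has2 virus, with differences of 0.28, 0.30 and 0.35. The edgeR adjusted p of 0.189, 0.173 and 0.0761 missed the threshold. Of all genes 34.5% had opposite pairs, counting either direction. Without the block the adjusted p of these 5 chains was 0.557 to 0.723. As plain percents of counts, without scaling, Col1a1, Col1a2 and Col5a3 did not keep opposite pairs.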

How the results depend on the processing

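No chain was called for the virus in any fit run with edgeR, DESeq2 or limma-voom, and with the replicate block the number of called genes stayed at 1, with log2 fold changes of the chains between -0.08 and 0.12. The virus comparison called 7 genes with DESeq2, 61 with DESeq2 and the block, and 2 with the block once trends of GC content and length were taken out. The pairing changed the sex by virus comparison: 4470 genes were called with the block, 1699 with the block and the trend removed, 675 with DESeq2, and 0 with the other scalings and filters and with the trend removed but no block.

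Fold changes this close to 0 change sign easily. With the trend removed, without and then with the block, they were -0.15 and -0.14 for Col1a1, -0.0207 and -0.0594 for Col2a1, -0.0772 and -0.0958 for Col3a1, -0.0999 and -0.0886 for Col5a1, and -0.0728 and -0.0544 for Col5a2. Col1a2 was at 0.0062 with RLE scaling and with DESeq2, 0.0145 with scaling that left out Has2 and the collagens, 0.0054 with a filter of 1 CPM, 0.0182 with no filter and 0.0095 with DESeq2 and the block. Col5a3 was at 0.0363 with the replicate block, 0.0340 with sex as a covariate, 0.0132 with RLE, 0.0233 with the collagens left out of scaling, 0.0150 and 0.0279 with those filters, 0.0131 with DESeq2, 0.0533 with DESeq2 and the block, and 0.0428 with limma-voom. The male minus female difference of Col3a1 was -0.0426 with library totals, -0.0140 and -0.0223 with the filters, and -0.0443 and -0.0383 with the trend removed, without and with the block. With the trend removed the log2 difference of Col5a1 to Col5a2 was -0.0342 and that of Col11a1 to Col5a1 0.11. The cause was not tested.

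By coding length the mean levels were 2111 RPKM for Col3a1, 1564 for Col1a2, 1449 for Col1a1, 557 for Col5a2 and 287 for Col5a1. The less abundant chains were at 20.6 for Col11a1, 17.7 for Col2a1, 8.15 for Col5a3 and 2.39 for Col27a1. By joined exons the mean levels were 962 for Col1a1, 945 for Col3a1, 518 for Col1a2, 261 for Col5a2 and 187 for Col5a1. Col11a1 was at 8.74, Col2a1 at 8.54, Col5a3 at 6.25 and Col27a1 at 1.02, since the lengths differ.

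Leaving out libraries or pairs gave 1 to 1 called genes for the virus, and log2 fold changes of -0.10 to 0.17 for Col1a1, -0.11 to 0.0938 for Col1a2, -0.0943 to 0.39 for Col2a1, -0.21 to 0.26 for Col3a1, -0.0378 to 0.22 for Col5a1, -0.15 to 0.25 for Col5a2, -0.12 to 0.29 for Col5a3, -0.16 to 0.32 for Col11a1 and -0.18 to 0.0259 for Col27a1. Sex by virus gave 0 to 4 called genes (4 without GFP replicate 2), and male minus female differences of 0.05 to 0.52 for Col1a1, 0.13 to 0.48 for Col1a2, 0.23 to 0.67 for Col2a1, -0.28 to 0.34 for Col3a1, 0.04 to 0.44 for Col5a1, -0.13 to 0.40 for Col5a2, 0.01 to 0.62 for Col5a3, -0.99 to -0.05 for Col11a1 and -0.36 to 0.22 for Col27a1. The mean share ran from 2.41% to 2.75% with GFP and from 2.39% to 2.82% with Has2. The log2 differences of the ratios ran from -0.0060 to 0.0935 for Col1a1 to Col1a2, -0.11 to 0.14 for Col3a1 to Col1a1, -0.0362 to 0.10 for Col5a1 to Col5a2, -0.17 to 0.0514 for Col5a3 to Col5a1, -0.13 to 0.23 for Col11a1 to Col5a1 and 0.02 to 0.13 for Col5a1 to Col1a1.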

Other observations

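Col24a1, a fibrillar chain of bone and cornea that was too rare to test, had 2, 12, 6 and 7 counts in GFP replicates 1 to 4 and 1, 13, 9 and 3 counts in the Has2 replicates. Replicate 2 was highest under either virus. Col11a2, the partner of Col11a1 in type XI collagen, was lower with the Has2 virus in 4 of 4 pairs and, at 1.15 to 2.81 CPM, lay far below the 66.4 CPM that was the lowest value of Col11a1. Over all genes tested 7.96% were lower in all 4 pairs.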
